A study of Mus musculus with 4 samples.

Results

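Promoters of protein-coding genes that are poor in CpG dinucleotides were examined in open chromatin maps of mouse epidermal keratinocytes. Peaks of 4 ATAC-seq libraries were merged wherever they shared at least 1 bp, which gave 82641 regions. A region was kept when it overlapped the 2 kb around the transcription start site (TSS) of a protein-coding gene and when every coding TSS within that distance had, over the 250 bp on each side, a GC content below 55% or a ratio of observed to expected CpG below 0.6. The rule kept 5149 regions, 6.23% of the total, and the coding TSS nearest to their strongest summit belonged to 3922 genes. The accessibility values played no role in the choice beyond the peak calls themselves. For comparison served the 12015 regions at coding promoters with a CpG-rich TSS and the 65477 regions away from any coding TSS.

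ATAC-seq inserts sequencing adapters into accessible DNA with a transposase. The keratinocytes had been sorted as EpCam+ CD49f hi cells from the skin of mice treated for 8 days with Aldara, a cream holding 5% imiquimod that inflames the skin. There were 2 libraries of wild-type mice, named WT 1 and WT 2, and 2 of Mapk8-KO mice, named likewise, and no library of untreated skin was analysed here. Mapk8 encodes the kinase JNK1, and per the study's methods it was removed from the epidermis by a KRT14-cre transgene acting on a floxed Mapk8 allele, in female mice of the C57BL/6 background aged 8 to 12 weeks with littermates as controls. The study calls the 2 libraries of a group independent samples. Whether each came from a single mouse or from several is not given in the sources used here, and every spread reported is that between libraries. The promoter of Mapk8 itself is CpG-rich and was open in all 4 libraries, and because a promoter need not lie in the deleted part these peaks do not check the genotype.

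Most housekeeping genes start in CpG islands, stretches of GC-rich DNA that escape methylation and are open in nearly every cell. CpG-poor promoters are more often those of tissue-restricted genes, some carry a TATA box at a fixed distance before the start, and they usually depend on transcription factors that are present in few cell types. In the epidermis many genes of the cornified envelope, the keratins, the S100 proteins and the epidermal proteases belong to this class. AP-1, the dimer of Fos and Jun proteins that JNK kinases phosphorylate, is a long-known regulator of such genes in keratinocytes.

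The letters before the start of 8 of these genes are shown because later results turn on them. Each run is the 120 bases upstream of the TSS in the GENCODE annotation, read 5′ to 3′ on the strand of the gene from the RefSeq copy of GRCm38 (mm10), and capitals mark an AP-1 motif (TGACTCA or TGAGTCA) or a TATA box (TATAAA). The first 4 hold AP-1, the next 2 a TATA box, and the last 2 hold neither motif in this window. Tmprss11f (chr5:86632425-86632544, minus strand) encodes a membrane-bound serine protease, Scel (chr14:103513222-103513341, plus strand) the cornified envelope precursor sciellin, Serpinb8 (chr1:107589886-107590005, plus strand) a serine protease inhibitor and Ccl27a (chr4:41770225-41770344, minus strand) a skin chemokine that attracts T cells. Epgn (chr5:91027344-91027463, plus strand) encodes the EGF receptor ligand epigen and Krtap11-1 (chr16:89571184-89571303, minus strand) a keratin-associated protein of hair. Clec2h (chr6:128662265-128662384, plus strand) encodes a C-type lectin-like protein and Krt14 (chr11:100207549-100207668, minus strand) the keratin of basal keratinocytes.
Tmprss11f: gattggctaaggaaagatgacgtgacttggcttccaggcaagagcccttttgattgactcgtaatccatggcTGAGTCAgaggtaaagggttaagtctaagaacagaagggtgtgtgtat
Scel: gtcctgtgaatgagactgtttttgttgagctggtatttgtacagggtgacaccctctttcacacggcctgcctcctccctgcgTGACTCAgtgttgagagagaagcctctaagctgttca
Serpinb8: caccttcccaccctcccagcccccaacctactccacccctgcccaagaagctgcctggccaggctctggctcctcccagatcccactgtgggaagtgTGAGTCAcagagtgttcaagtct
Ccl27a: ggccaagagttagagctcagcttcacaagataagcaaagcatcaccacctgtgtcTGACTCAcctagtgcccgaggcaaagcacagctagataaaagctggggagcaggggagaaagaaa
Epgn: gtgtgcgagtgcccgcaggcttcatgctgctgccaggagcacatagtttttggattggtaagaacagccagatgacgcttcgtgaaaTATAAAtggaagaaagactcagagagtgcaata
Krtap11-1: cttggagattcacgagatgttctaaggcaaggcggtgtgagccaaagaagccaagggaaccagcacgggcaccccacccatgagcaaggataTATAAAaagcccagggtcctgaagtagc
Clec2h: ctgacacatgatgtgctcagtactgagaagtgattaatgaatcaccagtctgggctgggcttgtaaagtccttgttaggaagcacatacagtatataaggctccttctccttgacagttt
Krt14: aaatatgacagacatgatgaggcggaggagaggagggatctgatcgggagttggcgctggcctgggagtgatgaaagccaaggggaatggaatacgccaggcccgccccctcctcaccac

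The CpG-poor promoters were called less often than CpG-rich promoters and more often than regions elsewhere. Of the 5149 regions, 2976 were called in all 4 libraries, which is 57.8% (Wilson 95% interval 56.4 to 59.1), against 76.7% of CpG-rich promoters and 42.7% of regions away from coding TSSs. A further 879 were called in 1 library, 606 in 2 and 688 in 3. More CpG-poor promoters were called in libraries of higher relative depth, a value estimated from the peaks themselves. Relative to WT 1, the depth estimated from the peaks was 0.691 for its fellow WT 2 and 1.12 and 0.644 for the Mapk8-KO libraries, and the libraries called 86.3%, 69.8%, 87.3% and 68.5% of the CpG-poor promoters in the order WT 1, WT 2, Mapk8-KO 1 and Mapk8-KO 2. That order is kept for all values below. A region without a peak is one that was not called in that library, not one shown to be closed. All intervals cover counting error only. The regions were narrower than CpG-rich promoters, with a median width of 494 bp against 738 bp, and the sequence within 100 bp of their strongest summits had a median GC content of 54.7% against 66.2%.

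The strongest summit often lay away from the start site. It was within 250 bp of a coding TSS in 47.6% of CpG-poor promoters and in 71.1% of CpG-rich promoters, a difference of -23.5 percentage points (95% interval -25.1 to -21.9). Each library taken alone gave the same sign, with differences from -25.6 to -23.9 points. A two-sided exact test that flips the signs over 4 libraries gave p = 0.13, which is the lowest p it allows. Summits within 100 bp of the TSS numbered 1683, and 71.4% of those regions were called in all 4 libraries. Beyond 1000 and up to 2000 bp there were 1225 regions, of which 42.1% were called in all 4. The 227 regions with summits farther out broke this fall with distance, with 57.7% called in all 4.

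**Figure D1:**
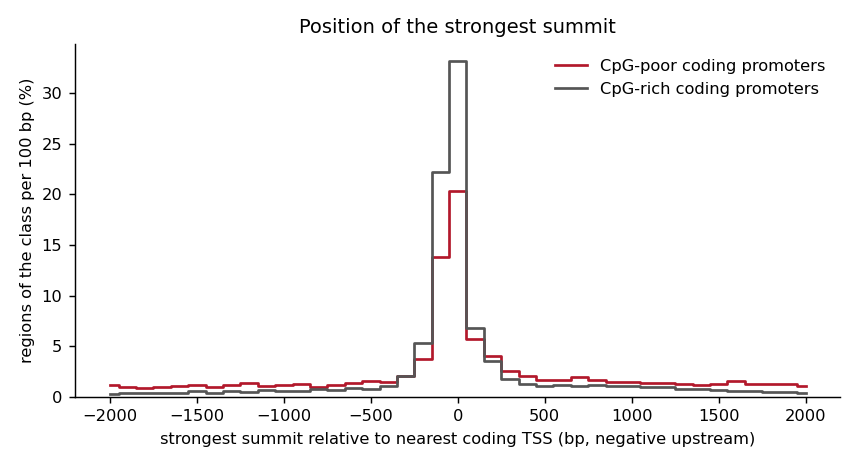
Share of regions (%, y axis) by the position of their strongest summit relative to the nearest coding TSS (bp, x axis, bins of 100 bp), for the 5149 CpG-poor and the 12015 CpG-rich coding promoters. Both lines peak at the TSS, the CpG-poor line is lower there and higher at most distances beyond 500 bp on either side.

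The class was not uniform. It held 667 regions whose nearest TSS had a low GC content but a CpG ratio of 0.6 or more, 1940 with a low CpG ratio only and 2542 with both values low. The share called in all 4 libraries fell along that order from 73.8% to 58.5% and 53.1%. Near the GC limit, Gnl3l and Irf2 lay just inside at 54.9% and Dnaaf3 and Nubpl just outside at 55.1%. For the CpG ratio, the nearest genes inside were Slc26a6 and Blmh and those outside Eif2ak2 and Vdr, all at 0.6 after rounding. Gnl3l had scaled pileups of 62, 86.8, 80.7 and 73.0, and Nubpl 72, 46.3, 60.1 and 60.5. The scaled pileup, used for every level here, is the number of fragments stacked at the highest point of the peak, divided by the relative depth of the library. Irf2, inside the GC limit, was called in WT 1 alone at 24. At the CpG limit Blmh had 15, 27.5, 19.7 and 29.5, below Slc26a6 inside and both genes outside, whose values ran from 52.9 to 99.4.

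Of the motifs searched, AP-1 had the largest excess over CpG-rich promoters. The letters TGACTCA or TGAGTCA lay within 100 bp of the strongest summit, on either strand, in 774 of 5149 CpG-poor promoters. That is 15.0% (14.1 to 16.03), against 5.78% of CpG-rich promoters and 27.6% of regions away from coding TSSs. The difference from CpG-rich promoters was 9.25 percentage points (8.20 to 10.3), and within single libraries it ranged from 9.41 to 11.4 points; the exact sign-flip test again gave its lowest p, 0.13. The share rose with distance from the start. It was 8.91% for summits within 100 bp of the TSS, 12.8% beyond that up to 250 bp, 18.5% between 500 and 1000 bp, 21.2% between 1000 and 2000 bp and 27.3% farther out. It was 8.10% where only GC was low, 13.4% where only the CpG ratio was low and 18.1% where both were low. In windows of the same size around all 41409 distinct coding TSSs, with or without a peak, 2.70% held AP-1. The share was 3.86% for CpG-poor TSSs and 1.34% for the others. The classes therefore differed in AP-1 at their starts without regard to accessibility. A match of letters is a description of the window and not a measured binding site.

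The motifs of housekeeping promoters were rarer. ETS (CCGGAAG) was found in 4.91% of CpG-poor and 12.6% of CpG-rich promoters, NRF1 (GCGC on each side of any 2 bases) in 2.35% and 11.1%, and the GC box of SP and KLF factors (GGGCGG) in 28.2% and 61.6%. These motifs contain CpG or are GC-rich, so their shares are tied to the rule that chose the regions. For the CCAAT box, which has no CpG, the shares were 28.2% and 28.6%, and the interval of the difference ran from -1.87 to 1.07 points. The 667 regions with low GC only were the exception among CpG-poor promoters for ETS, with a share of 14.4%. IRF sites (GAAA, any 2 bases and GAAA again), bound by interferon regulatory factors, were found in 2.08% of CpG-poor and 0.957% of CpG-rich promoters, a difference of 1.12 points (0.718 to 1.58). Around all coding TSSs, with or without a peak, IRF sites were found at 2.85% of CpG-poor and 0.909% of other TSSs. CREB/ATF sites (TGACGTCA), which differ from AP-1 by an added base and contain CpG, were found in 1.44% and 2.43%.

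**Figure D2:**
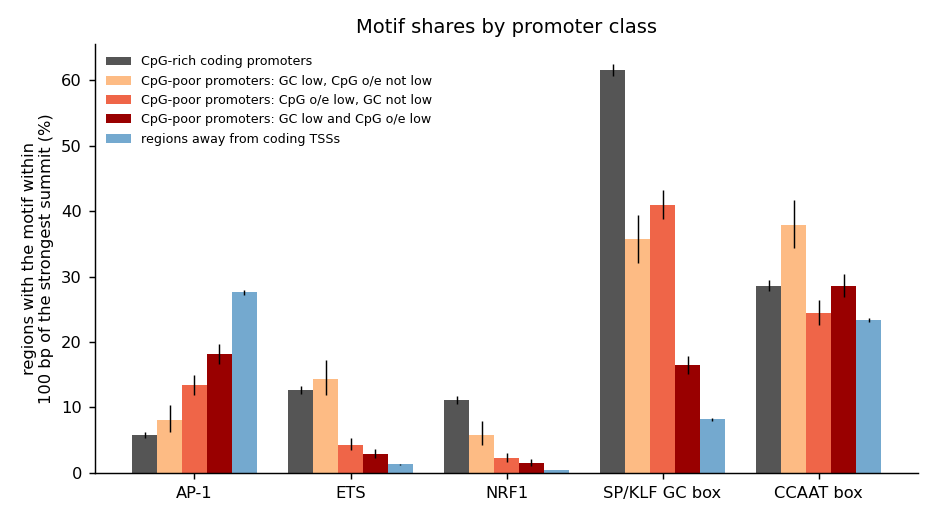
Share of regions (%, y axis) with each motif within 100 bp of the strongest summit, for CpG-rich promoters, the 3 kinds of CpG-poor promoters and regions away from coding TSSs, with Wilson 95% intervals. AP-1 increased from 5.78% in CpG-rich promoters to 18.1% where GC and CpG ratio were both low, while the GC box decreased from 61.6% to 16.4%.

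A TATA box, searched as TATAAA on the sense strand with its first base 40 to 20 bp upstream of the nearest coding TSS, was present at 151 CpG-poor promoters. The share was 2.93% (2.51 to 3.43) against 0.857% of CpG-rich promoters, a difference of 2.08 points (1.61 to 2.59). Among all coding TSSs, with or without a peak, it was 2.81% of CpG-poor and 0.658% of other TSSs. The TATA box was unevenly spread over gene groups. Of the 3922 genes nearest to CpG-poor regions 119 had a TATA box, 3.03%. Among them were 14 of the 29 cornified envelope genes, including Ivl (involucrin), Lor (loricrin), Sprr1a and Sprr1b, and 5 of 6 keratin-associated protein genes. None of the 34 interferon-induced genes did, and 1 of 22 S100 and antimicrobial genes did (S100a4). These counts describe the lists and were not tested.

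Most CpG-poor promoters in the genome showed no peak. Of 22273 distinct CpG-poor coding TSSs, 17.5% lay inside a region called in all 4 libraries, 4.26% inside a region called in fewer, and 62.4% had no region within 2 kb. For the 19136 CpG-rich TSSs the share inside a region called in all 4 was 79.8%. Within the CpG-poor class the share depended on which value was low. It was 62.6% of 1636 TSSs with low GC only, 29.6% of 5354 with a low CpG ratio only and 8.41% of 15283 with both low. The open starts had a median CpG ratio of 0.521 and those without a region 0.193. Around the TSS itself, the GC box was present within 100 bp at 36.5% of CpG-poor starts open in all 4 libraries and at 8.49% of those without a region, and ETS at 10.8% and 1.73%. AP-1 differed less, 5.60% against 3.43%, a difference of 2.17 points (1.42 to 2.99). The TATA box went the other way, at 1.41% of open starts and 3.33% of those without a region (difference -1.92 points, -2.37 to -1.41).

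Counted by gene, 10697 of 21827 coding genes had only CpG-poor starts. A peak within 2 kb of a start was found for 32.3%, 28.2%, 32.3% and 28.3% of them in the 4 libraries, and for 90.9%, 86.7%, 91% and 87.7% of genes with a CpG-rich start. A gene with such a peak is called open below, although the peak need not cover the start. The group means for the CpG-poor genes were 30.3% ± 2.88 (WT) and 30.3% ± 2.82 (Mapk8-KO; SD, n = 2 libraries each), a difference far below the spread between libraries. Over any library 35.3% of the genes were open, and 40.6% when the chemosensory receptors, genes of olfactory and vomeronasal neurons, were left out.

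Most epidermal gene lists had a larger open share than CpG-poor genes as a whole, and the keratins and keratin-associated proteins a smaller one. The lists are described by their counts and were not tested. All 9 CpG-poor genes among the keratinocyte markers and all 4 among the EGF receptor ligands were open in at least 1 library, with a peak within 2 kb of a start. So were 22 of 23 adhesion and basement membrane genes, 20 of 25 barrier lipid genes, 24 of 32 S100 and antimicrobial genes, 34 of 61 interferon-induced genes, 29 of 54 cornified envelope genes, 29 of 56 cytokine and chemokine genes and 45 of 104 epidermal proteases and inhibitors. The keratins had 13 of 45 and the keratin-associated proteins, which harden hair, 6 of 57. Flg (filaggrin), Flg2 and the late cornified envelope genes Lce1a1 and Lce1c were among the genes that were not open. Chemosensory receptors had 49 of 1516, liver genes 3 of 20 and muscle genes 6 of 18. The sort kept epithelial cells, and some markers of other cells were open as well. Of the CpG-poor markers, 1 of 5 T cell genes was open (Il7r, while Cd2, Cd3d, Cd3e and Cd3g were not), 2 of 8 myeloid and Langerhans cell genes, 3 of 6 melanocyte genes, 2 of 6 fibroblast genes, 3 of 5 endothelial genes and 1 of 3 mast cell genes. These lists are short. The endothelial and melanocyte shares, 60% and 50%, were above the 35.3% of all CpG-poor genes. Those of T cell, myeloid, fibroblast and mast cell markers were below it.

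**Figure D3:**
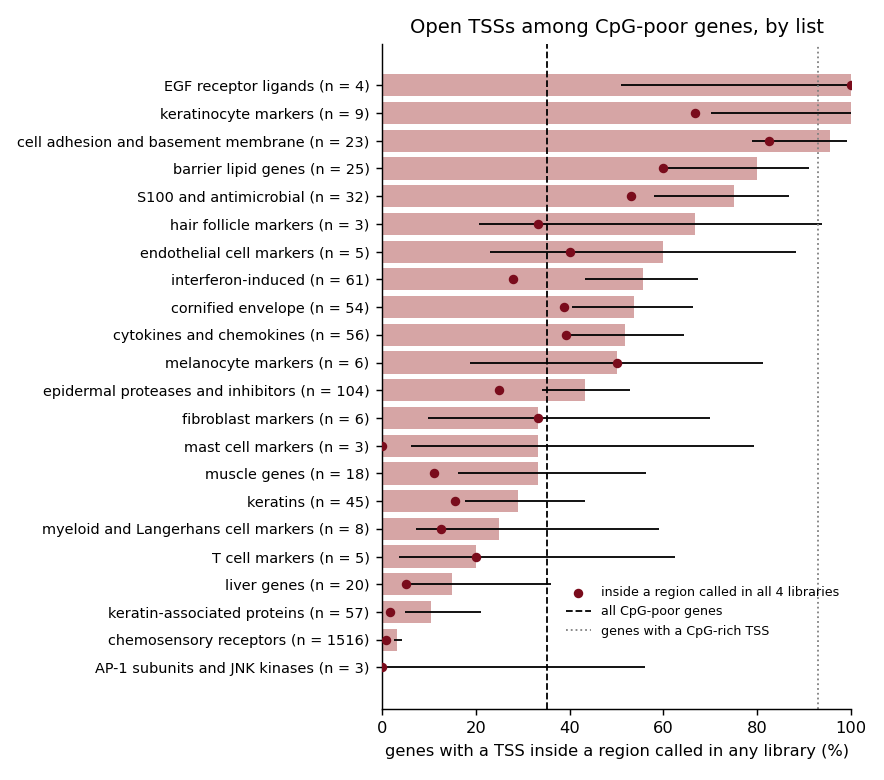
Share of genes (%, x axis) with a region called in any library within 2 kb of a TSS, by gene list (y axis, n is the number of genes with only CpG-poor starts). The words inside a region on the axis and in the legend stand for a region within 2 kb. Bars have Wilson 95% intervals, and dots give the share with such a peak in each of the 4 libraries. The dashed line marks all CpG-poor genes at 35.3% and the dotted line genes with a CpG-rich start at 93.1%.

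Among the cornified envelope genes the most accessible promoter was that of Sprr2a2, a small proline-rich protein, with 165, 174, 163 and 127 scaled fragments at a summit 2027 bp upstream that held AP-1. Its neighbour Sprr2a1 had 179, 169, 168 and 112. Mapk8-KO 2 was the lowest library for both, and the groups did not overlap, as was the case for 20.3% of all regions in each direction. Crnn (cornulin), with a TATA box, had 125, 143, 142 and 110, with overlapping groups. Scel, whose AP-1 letters are printed above, had 131, 111, 136 and 135. It differed little between libraries, the WT values being the lowest by a small margin.

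Keratin promoters were less accessible. Krt16, a keratin of wounded and inflamed epidermis, had 91, 79.6, 84.3 and 68.3 and held AP-1. Krt8, a keratin of simple epithelia, had 71, 46.3, 53.8 and 60.5. Krt80 had 41, 40.5, 40.3 and 49.7. The groups overlapped for all 3. Krtap11-1, with the TATA box printed above, had 59, 36.2, 73.5 and 79.2, with both Mapk8-KO values above both WT values and a log2 difference of -0.72 (limma, SE 0.226, adjusted p = 0.173) that did not pass the test.

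The 32 regions of epidermal proteases and inhibitors open in all libraries had median levels of 52.5, 53.5, 50.2 and 47.3, close to the medians of 50, 49.2, 50.2 and 51.2 over all CpG-poor promoters, and the 23 S100 and antimicrobial regions had 72, 69.4, 66.3 and 74.5. The genes named next were among the highest of these lists. Serpinb8, with AP-1 printed above, had 123, 140, 140 and 158 scaled fragments. Serpinb5, which encodes the protease inhibitor maspin, had 118, 117, 137 and 149. In both the top value was in Mapk8-KO 2, and the groups of Serpinb8 overlapped. Serpinb5 had both Mapk8-KO values on top but did not pass the test (adjusted p = 0.574, limma). Klk9, one of the kallikrein proteases that cleave the junctions of surface cells, had 126, 130, 124 and 130. S100a14, a calcium-binding protein of epithelia, had 100, 92.6, 103 and 123, with both Mapk8-KO values on top but not past the test (adjusted p = 0.705, limma). Defb6, a beta-defensin, had 106, 139, 127 and 138. WT 1 gave the lowest value for Defb6 and the other libraries lay close together. Rnase4, an antimicrobial ribonuclease, had 143, 150, 121 and 124, with both WT values on top but not past the test (adjusted p = 0.614, limma).

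Of the 24 cytokine and chemokine regions open in all libraries, 8 had both WT values on top and 4 both Mapk8-KO values, beside 20.3% of all regions in each direction, and none passed the test. Il1f8 (IL-36 beta) had 161, 159, 133 and 127, a log2 difference of 0.30 (adjusted p = 0.524, limma). Il1f9 (IL-36 gamma) had 92, 89.7, 74.4 and 63.7, a log2 difference of 0.40 (adjusted p = 0.453, limma). Ccl27a, with AP-1 upstream, showed the same order with 97, 85.4, 76.2 and 69.9. Il1rn, the antagonist of the IL-1 receptor, showed the opposite order with 116, 123, 126 and 132. The groups of these 4 genes did not overlap. Il1f6 (IL-36 alpha), added after its values were seen, had 68, 75.2, 52.9 and 40.4, and Il1f5 (the IL-36 receptor antagonist), added likewise, 28, 23.1, 25.1 and 32.6, with overlapping groups.

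Among the EGF receptor ligands, Egf had 92, 91.2, 113 and 116. Btc (betacellulin) had 45, 43.4, 53.8 and 54.3. For both the Mapk8-KO values lay above the WT values, again short of the test. Epgn, with the TATA box printed above, had 82, 88.3, 69.0 and 82.3, with overlapping groups.

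Lipid and adhesion genes gave no call between genotypes. Acer1, a ceramidase, had 129, 116, 120 and 115. Smpd1, the acid sphingomyelinase, had 106, 122, 116 and 127. The groups overlapped for both. Itga2, an integrin chain with AP-1 at its summit, had 133, 122, 132 and 74.5, so that Mapk8-KO 2 stood apart from the other 3. Among interferon-induced genes Ifi202b, a sensor of DNA, led with 203, 218, 221 and 194, with overlapping groups.

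Among the markers of other cells Il7r, a cytokine receptor of lymphoid cells, had 119, 106, 105 and 65.2. Cd68 of macrophages had 41, 39.1, 30.5 and 31.0. Pdgfra of fibroblasts had 41, 37.6, 52.0 and 52.8. The melanocyte gene Dct had 57, 57.9, 70.8 and 85.4. Il7r and Dct were above the median over all CpG-poor promoters in each library. The 2 endothelial regions open in all libraries had medians of 43.0, 54.8, 50.6 and 45.5, on either side of the medians over all CpG-poor promoters. The other fibroblast and melanocyte genes open in all libraries, Col1a1 with 22, 31.8, 21.5 and 17.1 and Mlana with 36, 33.3, 33.2 and 31.0, had both WT values on top, as had Il7r and Cd68, while Pdgfra and Dct had both Mapk8-KO values on top. None passed the test, the fibroblast and melanocyte lists held 1 gene of each order, and their part in the other differences was not tested. Olfr433, an olfactory receptor gene on chromosome 1, was an exception in its group with 174, 181, 187 and 140. Its neighbour Olfr432 had 127, 158, 118 and 77.6.

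The regions with the highest pileups were not typical promoters. All 10 of the highest lay at the predicted genes Gm10800, Gm10801, Gm21738, Gm10722, Gm10718, Gm11168, Gm10719 and Gm10717 on chromosomes 2, 9 and 14. The highest, at Gm10800, reached 14517, 19208.5, 13828 and 25244.5 scaled fragments, against a median of 33.6 for the mean of all CpG-poor promoters. The reference masks at least 94.5% of the bases within 100 bp of their summits as repeat, except at Gm10801, where it masks 44.8%. None of these regions passed the test between genotypes, and Mapk8-KO 2 was the highest library for 9 of the 10.

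Median levels set the CpG-poor promoters between the other classes. Over the 2976 regions called in all 4 libraries the median was 50, 49.2, 50.2 and 51.2 scaled fragments. On the log2 scale the median minus that of CpG-rich promoters was -0.214, -0.270, -0.259 and -0.382, and minus that of regions away from coding TSSs it was 0.0893, 0.0875, 0.163 and 0.290 (exact sign-flip test, p = 0.13 for each). The gap to both classes was widest in Mapk8-KO 2. By genotype the WT libraries had a median log2 level of 5.63 ± 0.0166 and the Mapk8-KO libraries one of 5.66 ± 0.0207 (SD, n = 2 each). The difference was -0.03 (two-sided exact permutation test, p = 0.33, below which 2 against 2 cannot go).

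**Figure D4:**
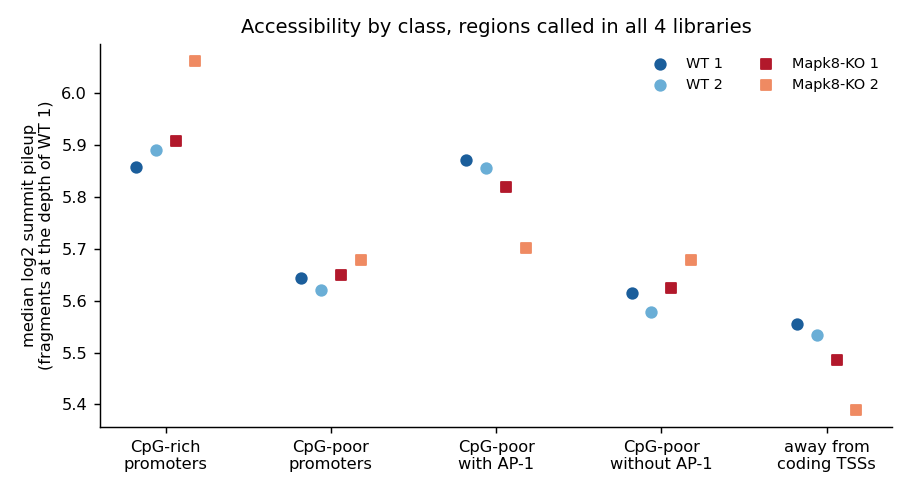
Median log2 summit pileup (y axis, fragments at the depth of WT 1) of regions called in all 4 libraries, by class (x axis), with 1 point per library. CpG-poor promoters lie between CpG-rich promoters and regions away from coding TSSs in each library, and the gap between regions with and without AP-1 is 0.0215 in Mapk8-KO 2 against 0.196 to 0.278 in the other libraries.

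Few single promoters differed between genotypes. Each of the 40159 regions called in all 4 libraries was tested with limma on the log2 pileup, and at a Benjamini-Hochberg adjusted p below 0.05 the test called 0.214% of them higher in WT and 0.0199% higher in Mapk8-KO. Of the 2976 CpG-poor promoters 3 were higher in WT and 0 in Mapk8-KO. At an unadjusted p below 0.05 the numbers were 103 and 131, where 6.72% and 3.72% of all regions tested had such a value. With the library medians set equal in place of the centring on median log ratios, 8 and 1 were called, beside 0.496% and 0.11% of all regions.

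Gpr37, an orphan G protein-coupled receptor gene, had 97, 86.8, 40.3 and 46.6 scaled fragments. The region (chr6:25688990-25690463) spans the TSS, and its summit lay 621 bp downstream of it. The log2 difference was 1.08 (SE 0.208, adjusted p = 0.0121, limma). At the promoter of Tmprss11f (chr5:86632387-86632715) the values were 72, 70.9, 35.9 and 24.8, a log2 difference of 1.26 (SE 0.244, adjusted p = 0.0132, limma). Its AP-1 letters lay 12 bp from the summit and 45 bp upstream of the TSS. The promoter of Clec2h (chr6:128662219-128662605) had 55, 85.4, 39.4 and 23.3, a log2 difference of 1.18 (SE 0.263, adjusted p = 0.0375, limma), with AP-1 letters 30 bp downstream of the TSS. The groups did not overlap in any of the 3, and Mapk8-KO 2 was the lowest library at Tmprss11f and Clec2h. None of the 3 calls held with fold enrichment in place of pileup (adjusted p from 0.646 to 0.740, limma). Without Mapk8-KO 2 Gpr37 alone kept its call (adjusted p = 0.00427, against 0.0832 for Tmprss11f and 0.340 for Clec2h, limma), and without WT 2 none did (0.0823 to 0.626). Without WT 1, Clec2h alone was called, and Clec2h lost its call on the scale log2(pileup + 10) (adjusted p = 0.0569, limma).

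A second region of Tmprss11f, 1554 bp downstream of the TSS and also with AP-1, had 71, 86.8, 52.0 and 34.2 (adjusted p = 0.0764, limma). It was among the 6 further promoters called once library medians were set equal, with Vmn1r42, Tigit, Sfi1 and Limk1 higher in WT and Smco4 higher in Mapk8-KO. Smco4 had 59, 55, 94.1 and 93.1.

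Regions called in 1 genotype only were a smaller share of CpG-poor promoters than of all regions and a larger share than of CpG-rich promoters. Called in both WT libraries and in neither Mapk8-KO library were 70, 1.36% of the class, beside 2.17% of all regions and 0.658% of CpG-rich promoters. The reverse held for 75, 1.46%, beside 1.65% and 0.724%. The 5 highest in WT were near Sqor, Palmd, Dthd1, Akt2 and Tuba8. Sqor, a mitochondrial sulfide oxidase gene, had 39 and 37.6 scaled fragments at 12.2 and 9.64 times the local background. A region 92 bp upstream of a start of Akt2, a kinase of insulin signalling, had 40 and 31.8 at 5.88 and 5.11 times. The other 3 stood at 2.63 to 4.23 times background.

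Among the highest in Mapk8-KO were regions near Vsig8, Pls3, Tgm1 and Slc8b1. Tgm1, the transglutaminase that cross-links the cornified envelope, had 32.3 and 35.7 scaled fragments. These were only 3.44 and 3.43 times the local background, where the median over CpG-poor promoters was 7.10 and 7.403. Pls3, which encodes an actin-bundling plastin, had 35.0 and 37.3 at 4.15 and 4.36 times background. The 4 regions stood between 2.51 and 4.36 times background, so the peaks were weak against their surroundings.

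Among the keratinocyte markers Krt14 stood out between genotypes. The region at its start (chr11:100207510-100207834) had 36 scaled fragments in WT 1, no peak in WT 2, and 178 and 169 in Mapk8-KO. Fold enrichment was 4.35 in WT 1 and 15.5 and 14.6 in Mapk8-KO. A second region, 1429 bp upstream, did not share this, with 38, 24.6 and 29.6 and no peak in Mapk8-KO 2. The Mapk8-KO mice carry the KRT14-cre transgene, and fragments of a transgene and of the gene itself cannot be told apart in these peaks. Lacking a peak in WT 2, the region was outside the test, and it was singled out after its values were seen. Krt5, the partner of Krt14 in basal cells, had 24 in WT 1 and 26 in Mapk8-KO 1 at its start and no peak in the 2 shallower libraries.

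**Figure D5:**
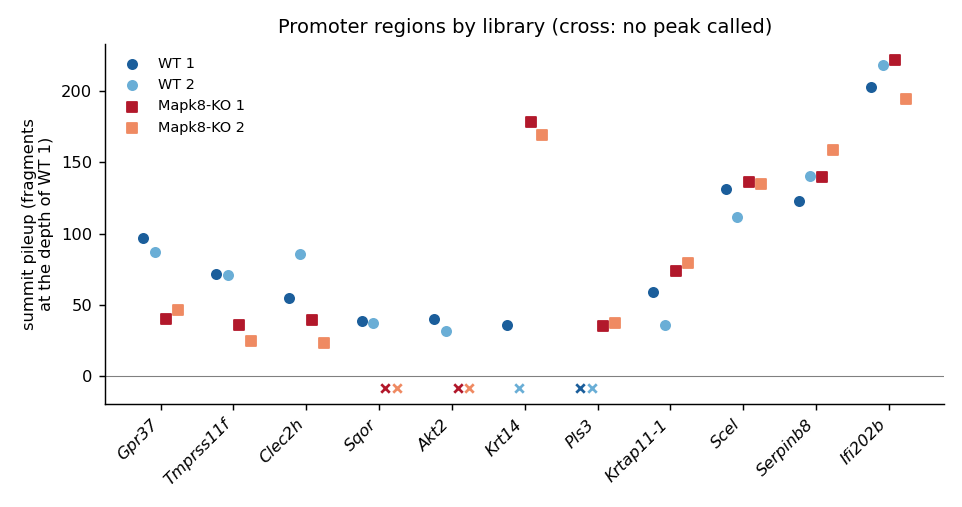
Scaled summit pileup (y axis, fragments at the depth of WT 1) of 11 CpG-poor promoter regions (x axis) in the 4 libraries, with a cross below 0 where no peak was called. Gpr37, Tmprss11f and Clec2h are higher in WT, Krt14 reaches 178 and 169 in Mapk8-KO against 36 in WT 1, and Serpinb8 and Ifi202b are close in all libraries.

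CpG-poor promoters with AP-1 more often had their higher values in WT, and those without it in Mapk8-KO. In 26.7% of the 446 regions with AP-1 called in all libraries both WT values were above both Mapk8-KO values, and in 14.3% the reverse held. For the 2530 without AP-1 the shares were 12.8% and 26.6%. In all, 442 CpG-poor promoters had both WT values on top and 736 both Mapk8-KO values, beside 20.3% of all regions in each direction. Of the 774 regions with AP-1, 2.97% were called only in WT and 0.775% only in Mapk8-KO, and of the 4375 without 1.07% and 1.58%. The median log2 level of regions with AP-1 exceeded that of regions without it by 0.256, 0.278, 0.196 and 0.0215 in the 4 libraries, and the WT mean of these gaps exceeded the Mapk8-KO mean by 0.158 (exact permutation test, p = 0.33). Mapk8-KO 2 stood apart, and without it the difference was 0.0614. It was 0.0785 with a TSS within 500 bp, 0.0921 with fold enrichment in place of pileup and 0.105 with pileup centred within GC deciles. Over all regions called in all 4 libraries 32.6% of those with AP-1 had both WT values on top and 10.8% both Mapk8-KO values, against 16.4% and 23.4% of those without. CpG-rich promoters with AP-1 had the other order, with 15.8% and 27.1%, and those without AP-1 had 6.65% and 31.7%.

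Over all regions tested the median of the log2 differences of single regions, WT minus Mapk8-KO, was -0.0053. For the gene lists it was 0.135 for 24 cytokine and chemokine regions, 0.0317 for 26 cornified envelope regions, -0.0055 for 23 S100 and antimicrobial regions, -0.0303 for 25 adhesion regions and -0.206 for 8 keratin regions. Over all 2976 CpG-poor promoters it was -0.0514. The 32 regions of epidermal proteases and inhibitors had a median of 0.00505 and held Tmprss11f, the single region of any list that was called.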

How the data were processed

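The authors aligned the read pairs to mm10 with Bowtie2, per the labels and methods, filtered them with SAMtools and called peaks with MACS2 in each library separately, without a control. The submitters' processing notes also list Trimmomatic 0.36, STAR 2.5.3 and Picard. A Tn5 shift of read ends is not given in the sources used here. For each peak the deposited lists hold a score derived from the q value, the fold by which the summit exceeds local background (a ratio), −log10 p and −log10 q values, and the summit offset. The lists hold no read counts per region, so the study's DESeq2 test was not run.

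The summit pileup was recovered by solving the deposited fold and −log10 p for pileup and background together. At least 99.996% of peaks gave a whole number to within 0.05, as did 100% of 5000 simulated peaks. Relative depth was the median of log2 ratios to the regional mean over the 40159 regions called in all 4 libraries, and depth in reads is unknown. These regions were tested with limma 3.58.1 (R 4.3.3, variance trend, Benjamini-Hochberg). In simulated data it recovered 74.5% of 200 regions changed 3-fold, with 2 false calls among 40159. The simulation gave all libraries the same dispersion and changed only regions above a minimum level. Its figures need not hold for the real libraries. Class values per library were compared by exact permutation over group labels or by exact sign flips, and shares have Wilson and Newcombe intervals. TSSs came from GENCODE basic vM21 (41438 coding TSSs of 21827 genes). Sequence came from RefSeq GRCm38, with Python 3.11.15 and pysam 0.24.0. Motifs were searched on both strands, except the TATA box.

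The members, gene lists, motifs and tests were chosen with earlier results of these data known. Named regions were those called by limma, the 5 highest called in 1 genotype only, the 10 with the highest level, up to 4 genes of each list and those next to the thresholds. A region that the rule names is not reported here. Others are said to have been chosen after their values were seen. Alternatives covered the peak threshold, overlap, promoter definition, centring, the measure of level, motif windows and each library left out.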

Additional observations from a re-analysis of the deposited data

How the results depend on the processing

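Of 145 recomputed values, 2 changed sign and 45 moved, which means by over 1.5 times for a count and outside the 95% interval for a share. Differences of medians were judged by their sign alone, so their sizes could change, as for the AP-1 difference between genotypes, which ran from 0.0614 to 0.230 with 1 library left out. The share called in all 4 libraries was 57.8%, and became 59.2% at −log10 q of at least 5, 45.1% when peaks had to cover 50% of a region, 61.1% with lists of equal length, 52.4% when both CpG criteria were required and 66.2% with a TSS within 500 bp. Both CpG criteria also gave 35 regions called in Mapk8-KO only, an excess of 11.6 percentage points for AP-1 and 3.50 for the TATA box, and -28.9 points for summits near the TSS. They gave 252 and 280 of 1260 promoters with both WT or both Mapk8-KO values on top (the share over all regions being 20.3% in each direction). The difference of median log2 levels between genotypes became 0.0265 in place of -0.0322, which reverses the sign. A TSS within 500 bp gave 39 regions called in WT only and -13.3 points for summits near the TSS. The AP-1 excess was 6.73 points within 50 bp of the summit and 10.7 with summits of WT 1, and the TATA excess 3.05 points at 60 to 10 bp upstream. With library medians set equal, a setting chosen after seeing the data, 338 and 875 promoters (11.4% and 29.4%) had non-overlapping groups, beside 16.9% and 24.6% of all regions.

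The limma calls were fragile. In place of 3 higher in WT and 0 higher in Mapk8-KO, the test called 0 and 0 without a variance trend or with fold enrichment, 3 and 1 with centring by GC decile, and 8 and 1 with library medians set equal. Same-numbered libraries were alike in relative depth, 1 and 1.12 for WT 1 and Mapk8-KO 1 and 0.691 and 0.644 for WT 2 and Mapk8-KO 2. After centring, deviations of same-numbered libraries had a Pearson r of 0.0392 over 40159 regions. Whether they shared a batch was not tested. With the number as a replicate block the test called 9 promoters with higher WT levels and 0 with lower ones (0.302% and 0%, beside 0.68% and 0.0896% of all regions). The difference of median log2 levels stayed at -0.0322. The cause of these shifts was not tested.

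Leaving out 1 library at a time, which leaves a lone sample assumed to vary like the others, changes the criterion as well as the depth. The share called in every remaining library was 62.0 to 66.1%, the regions called in WT only numbered 85 to 440 and in Mapk8-KO only 107 to 435 (1.68 to 9.12% and 2.11 to 8.61%, beside 2.61 to 13.2% and 2.26 to 10.3% of all regions). Limma called 0 to 45 higher in WT and 0 to 38 higher in Mapk8-KO, with the highest counts without Mapk8-KO 1 (45 and 38 of 2991 promoters, beside 3.9% and 0.912% of all regions). The difference of median log2 levels was -0.0448 to 0.000876. Promoters with WT on top numbered 855 to 1006 (28.6 to 30.1%) and with Mapk8-KO on top 1209 to 1392 (38.1 to 46.5%). Of all regions, 34.1 to 37.8% and 33.9 to 38.5% had such an order with 3 libraries.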
